A study of Mus musculus with 8 samples.

Results

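The SLC25 genes encode the mitochondrial solute carriers, and 45 of the 16686 genes measured in aged fast muscle belonged to this family. Every gene whose symbol was Slc25a followed by a number was taken as a member, so no measured value decided the choice. Slc25a18 and Slc25a54 were not analysed here. Members lay on 19 chromosomes, with 4 of them on the X chromosome.

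Tibialis anterior (TA), a fast-twitch muscle of the lower leg, was taken from male mice of the FVBN strain at 22 months of age, as the age label gives it, although the labels' growth protocol names an age of 2 months. The groups were 4 wild-type mice (WT Old) and 4 mice without fast myosin binding protein-C (C2-/- Old). In the latter, a Neo selection cassette with LoxP sites at its ends stood in place of exons 2 to 22 of Mybpc2 in the germ line, so all tissues carried the deletion throughout life. Messenger RNA was selected by its poly-A tail, and each mouse gave 1 library. The comparison addressed which transcripts differ in old muscle that lacks this thick-filament protein, and here it was read for the carriers of mitochondria.

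SLC25 carriers sit in the inner mitochondrial membrane, are encoded by nuclear genes and pass metabolites between the cytosol and the matrix. The best known are the ADP/ATP carriers, which bring ADP in and send ATP out, and the phosphate carrier, which supplies the phosphate that ATP synthase joins to ADP. Other members exchange aspartate for glutamate, malate for oxoglutarate, or acylcarnitine for carnitine, and still others bring in cofactors, nucleotides, amino acids, glutathione or iron. A few members work in peroxisomes or in the outer mitochondrial membrane.

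Levels in each mouse are given as CPM, the count of a gene as a share of the scaled library total. Levels of different genes were compared only as TPM, for which the authors had also divided by transcript length. Total counts lay between 25425993 and 29747692 per mouse, so that 3 counts, the smallest level treated as shown, were 0.101 to 0.118 CPM, and this limit covers counting error only. Mybpc2 was at 4963, 5447, 5099 and 7390 CPM in the WT Old mice and at 4.35, 4.02, 38.3 and 3.85 CPM in the C2-/- Old mice, so the libraries matched their labels. Fast-fibre markers summed to 95399 to 140022 CPM in WT Old and 102760 to 127874 CPM in C2-/- Old, against 72.7 to 113 CPM and 68.1 to 91.8 CPM for slow-fibre markers. Red cell genes varied widely within both genotypes, with sums of 483 to 6297 CPM in WT Old and 907 to 5884 CPM in C2-/- Old. Fibroblast markers, all 5 of them with a higher estimate in C2-/- Old and 3 with an unadjusted p under 0.05, summed to 291 to 426 CPM in WT Old and 466 to 644 CPM in C2-/- Old, without overlap. Of the slow-fibre markers, 2 of 8 had an unadjusted p under 0.05, both with a lower estimate in C2-/- Old. By comparison, 5.29% of all tested genes had an unadjusted p under 0.05, and 0 markers of either list passed edgeR's adjustment. Sums of adipocyte markers (89.8 to 134 and 95.6 to 147 CPM), macrophage markers (31 to 77.9 and 53.6 to 83.1 CPM), endothelial markers (207 to 306 and 205 to 274 CPM) and Schwann cell markers (29.6 to 79.8 and 26.9 to 61 CPM) overlapped between WT Old and C2-/- Old. Still, 6 of 7 adipocyte and 6 of 7 macrophage markers had a higher estimate in C2-/- Old. Their median log2 fold changes, C2-/- Old over WT Old, were 0.73 and 0.24. Higher estimates were found for 2 of 5 endothelial and 1 of 4 Schwann cell markers, and 0 markers of these lists had an unadjusted p under 0.05 by edgeR. Most of the adipocyte sum was Fabp4, at 72.8 to 112 CPM with a log2 fold change of 0.01. No listed marker was at 0 in all 8 mice. The part of these other cells in the values of the carriers was not tested, and in whole muscle fewer cells of a type and less RNA per cell cannot be told apart.

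Promoter sequences were searched for cAMP response, GABP, NRF-1, MEF2 and oestrogen-related receptor elements, glucocorticoid half-site pairs and the E-box. Only some of these motifs are described here. Slc25a25, the carrier whose level spread most widely between mice among the abundant members, holds a full cAMP response element, the binding motif of CREB. RefSeq promoters, 250 bases before to 50 bases after a start site in GRCm38.p6, were matched for 34 members with 44 start sites. The element TGACGTCA, which reads the same on both strands, was found in 2 of these 44 promoters, from 2 members. It was found in 1.79% of all 32851 promoters. At another start site Slc25a25 also holds a GABP element (CCGGAAG). That motif was found in 6 of the 44 promoters and in 8.86% of all promoters. The windows below are printed 5′ to 3′ on the gene's own strand with the element in capitals.
Slc25a25: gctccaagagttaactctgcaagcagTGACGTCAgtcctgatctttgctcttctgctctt
Slc25a36: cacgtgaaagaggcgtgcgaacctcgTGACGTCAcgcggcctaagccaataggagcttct
The Slc25a25 window is chr2:32424183-32424242 on the minus strand, and its element begins 150 bases before an internal start site of the gene. For Slc25a36 the window is chr9:97111169-97111228, also on the minus strand, with the element 161 bases before the start. It opens with an E-box (CACGTG), a motif held by 8 of the 44 promoters, from 7 members, and by 7.15% of all promoters. A match of letters is a description and does not show that a factor binds there.

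A few carriers made up nearly all of the family's transcripts. Slc25a4, the ADP/ATP carrier of heart and skeletal muscle, had a mean level of 4639 TPM ± 553 (SD, n = 8) and made up 61.4% to 64.8% of the summed TPM of the family in each mouse. Slc25a3, the phosphate carrier, followed at 1241 TPM ± 174, and Slc25a12 and Slc25a11, which carry aspartate, glutamate, malate and oxoglutarate in the malate-aspartate shuttle, stood at 429.5 TPM ± 56.4 and 428 TPM ± 73.3. These 4 genes together held 90.4% to 92.8% of the family's TPM in each of the 8 mice. The whole family accounted for 0.621% to 0.844% of all TPM.

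**Figure D1:**
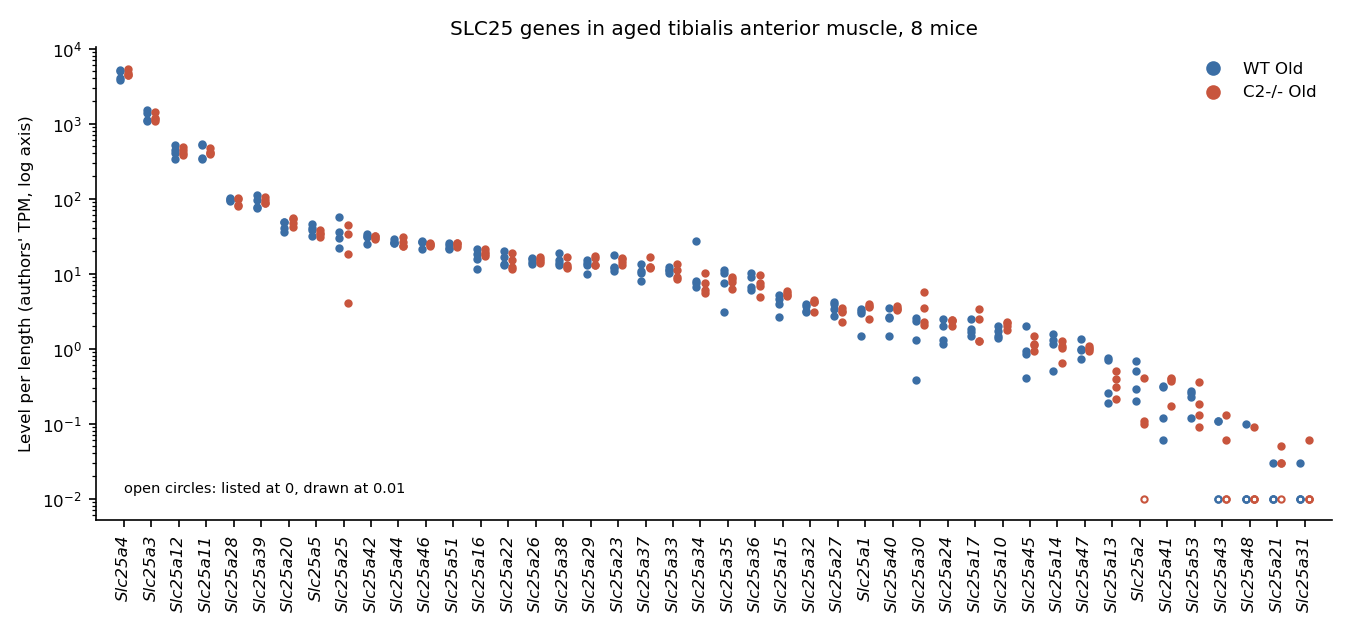
Level of 44 of the 45 SLC25 genes in each mouse, as the authors' TPM on a log axis, with genes ordered by their mean over 8 mice. Each point is 1 mouse, WT Old in blue and C2-/- Old in red, and open circles mark values listed at 0. Slc25a4 and Slc25a3 stood above all other members in every mouse, and the points of the genotypes lay over each other along the whole range, while Slc25a25 had 1 point far below the rest at 4.06 TPM.

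Below these came the iron carrier Slc25a28 (93.6 TPM ± 8.56), the glutathione carrier Slc25a39 (91.8 TPM ± 12.8), the carnitine/acylcarnitine carrier Slc25a20 (46.4 TPM ± 6.32) and Slc25a5, the ADP/ATP carrier of many tissues (36.7 TPM ± 5.07). The order of the levels was fixed in part only. Slc25a4 was above Slc25a3, and Slc25a3 above Slc25a12, in 8 of 8 mice, by 3.75-fold and 2.89-fold on average. Slc25a12 was above Slc25a11 in 6 of 8 mice with a mean ratio of 1.01, and Slc25a28 was above Slc25a39 in 3 of 8 mice, so these neighbours did not differ beyond their spread. The next step was clear, since Slc25a11 exceeded Slc25a28 by 4.53-fold in 8 of 8 mice. Slc25a25 (30.5 TPM ± 16.2) and Slc25a42, the coenzyme A carrier (30.4 TPM ± 2.67), had nearly the same mean, and Slc25a25 was the higher of them in 4 of 8 mice. In all, 22 members had a mean above 10 TPM, 15 lay between 1 and 10 TPM, and 8 were below 1 TPM.

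The lowest members were near the limit of counting. Slc25a31, the ADP/ATP carrier of the testis, had 0, 0, 0 and 1 counts in the WT Old mice and 0, 0, 0 and 2 counts in the C2-/- Old mice. Slc25a21, which carries oxodicarboxylates, and Slc25a48 and Slc25a43 had at most 2 counts in any mouse. Slc25a2, an ornithine carrier, had 13, 11, 5 and 4 counts in WT Old and 0, 2, 8 and 2 counts in C2-/- Old, with overlap between the genotypes. Slc25a41, an ATP-Mg/phosphate carrier, had 1 to 6 counts in WT Old and 4 to 7 in C2-/- Old. These 6 members did not pass edgeR's filter on low counts and were not tested, which left 39 tested members among 12542 tested genes.

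No carrier among the 39 tested passed the test between C2-/- Old and WT Old muscle. By edgeR's quasi-likelihood test 0 members had an unadjusted p under 0.05, against 5.29% of all tested genes, and 0 had a Benjamini-Hochberg adjusted p under 0.05, against 0.0319%. The smallest unadjusted p was 0.0695, the smallest adjusted p was 0.968, and DESeq2 gave 1 member with an unadjusted p under 0.05 and 0 after adjustment. The CPM of the genotypes overlapped for all 39 members, while they did not overlap for 3.37% of all tested genes. Estimates were higher in C2-/- Old for 16 members and lower for 23, and the median of their log2 fold changes (C2-/- Old over WT Old) was -0.05, beside -0.02 over all tested genes. They ran from -0.86 for Slc25a34 to 0.99 for Slc25a30.

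The precision of these estimates sets what could have been seen. The median standard error of a log2 fold change was 0.17 for the members and 0.18 for all tested genes, and the median coefficient of variation over the 8 mice was 18.4% for both. For 17 of the 39 members (43.6%) the 95% interval of the fold change lay within 1.5-fold in either direction, as it did for 53.0% of all tested genes. For the other 22 members a change of 1.5-fold in at least 1 direction lay inside the interval.

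**Figure D2:**
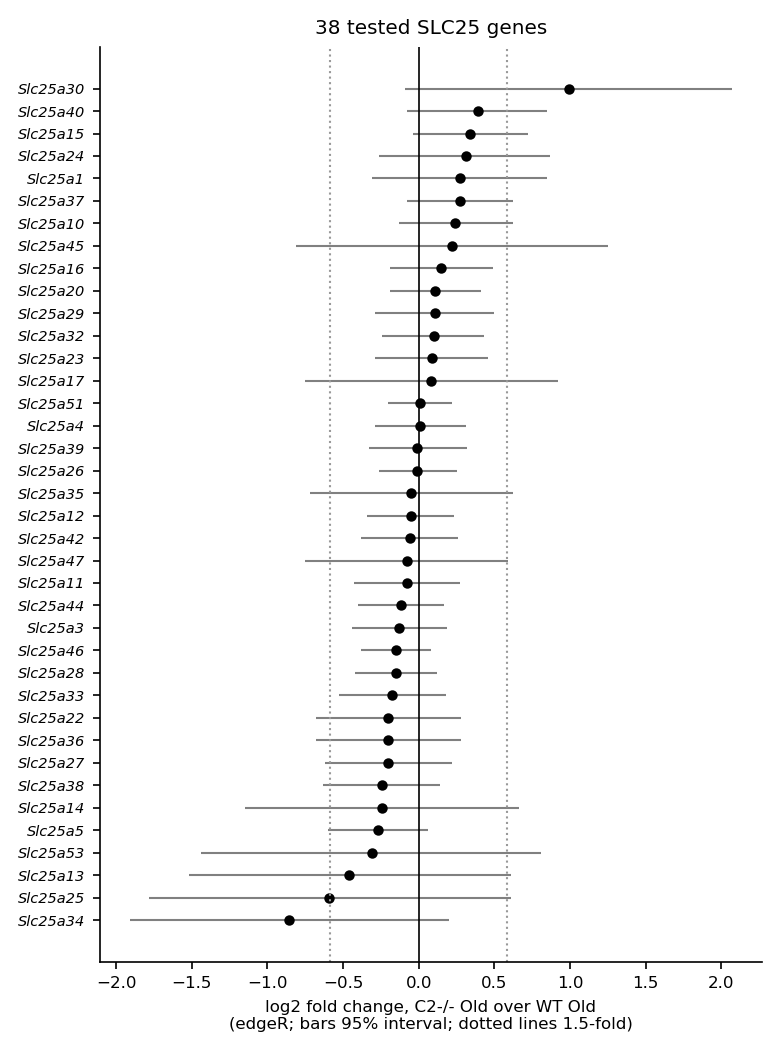
Log2 fold change, C2-/- Old over WT Old, of 38 of the 39 tested SLC25 genes with the 95% interval from edgeR (4 mice per genotype). The solid line marks no difference and the dotted lines mark 1.5-fold. All intervals shown include 0, and the estimates run from -0.86 (Slc25a34) to 0.99 (Slc25a30).

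Among the carriers of ADP, ATP and phosphate, 6 of 8 were tested, with 3 higher and 3 lower estimates and a median log2 fold change of -0.06. Slc25a4 was at 3065, 2444, 2679 and 2378 CPM in WT Old and at 3168, 2393, 2502 and 2562 CPM in C2-/- Old. The groups overlapped nearly completely, with a log2 fold change of 0.01 ± 0.13 (SE, edgeR) and a 95% interval of -0.29 to 0.31. Slc25a3 had 1008, 871, 975 and 780.1 CPM in WT Old and 1036, 792, 741 and 759 CPM in C2-/- Old (log2 fold change -0.13 ± 0.14). Its highest value came from a C2-/- Old mouse, although the other 3 of that group lay near or below the lowest WT Old value. Slc25a5 had 27, 34.6, 25.4 and 21.7 CPM in WT Old and 23.2, 23.9, 23.4 and 19.9 CPM in C2-/- Old, with a log2 fold change of -0.27 ± 0.15 and an unadjusted p of 0.102. A stretch of 887 bases of the Slc25a5 transcript is 98.3% identical to the pseudogene Gm5560, although its counts were whole numbers in all 8 mice.

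The ATP-Mg/phosphate carriers, which adjust the adenine nucleotide pool of the matrix and respond to cytosolic calcium, held the most variable of the abundant members. Slc25a25 was at 39.1, 67.8, 90.4 and 52.6 CPM in WT Old and at 7.19, 71.9, 57.6 and 29.8 CPM in C2-/- Old. C2-/- Old replicate 1 stood far below the other 7 mice, at 190 counts, and the highest value was 12.6 times the lowest. The genotypes overlapped, with a log2 fold change of -0.59 ± 0.54, a 95% interval of -1.78 to 0.61 and an unadjusted p of 0.301. With 1 mouse left out, the log2 fold change lay between -0.98 (without C2-/- Old replicate 2) and -0.23 (without C2-/- Old replicate 1), and limma-voom gave -0.95. Exons of Slc25a25 overlap Naif1 on the other strand. Naif1 was at 2.28 to 3.22 CPM in the 8 mice, and its part in the counts of Slc25a25 was not tested. Slc25a23, a related carrier, had 33.2, 23.9, 20.6 and 20.7 CPM in WT Old and 30.1, 26.9, 23.3 and 24.3 CPM in C2-/- Old (log2 fold change 0.09 ± 0.17), without a mouse that stood apart. Slc25a24 lay between 2.2 and 5.07 CPM in WT Old and between 3.71 and 4.4 CPM in C2-/- Old.

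Per1, a clock gene, and Fos, an immediate early gene, are both known targets of CREB and were set beside Slc25a25 after their values had been seen. Per1 was at 110.4, 137, 211 and 150.3 CPM in WT Old and at 30.9, 166, 94.5 and 89.1 CPM in C2-/- Old. Slc25a25 and Per1 were both highest in WT Old replicate 3 and both lowest in C2-/- Old replicate 1. Fos was at 4.47, 70.8, 7.8 and 245 CPM in WT Old and at 1.85, 123, 2.23 and 0.901 CPM in C2-/- Old, which is another order of the mice. Neither Per1 (unadjusted p 0.12) nor Fos (unadjusted p 0.402) passed edgeR's test between the genotypes. Whether CREB had a part in the spread of Slc25a25 or of Per1 was not tested.

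**Figure D3:**
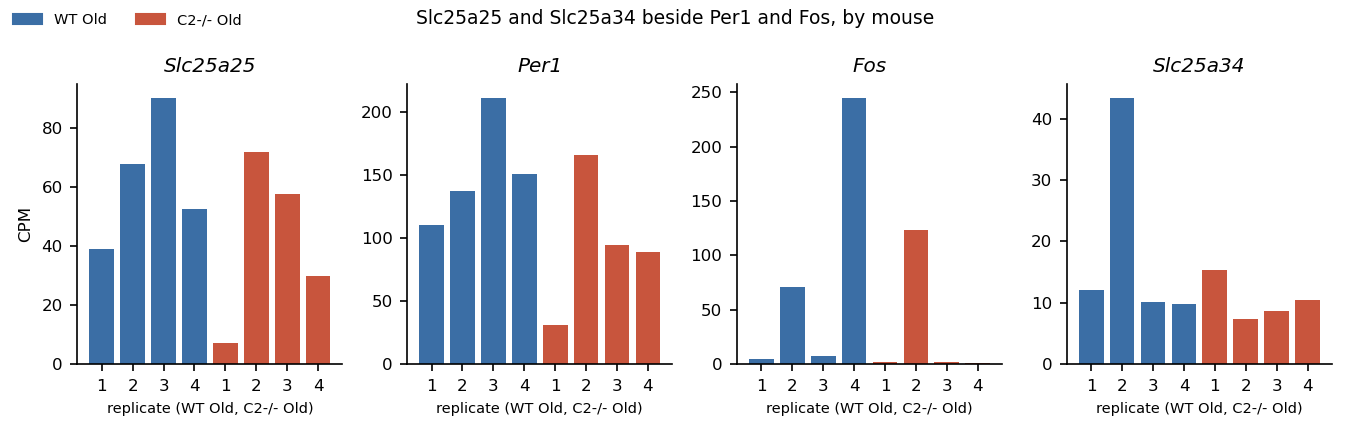
CPM of Slc25a25, Per1, Fos and Slc25a34 in each mouse, with WT Old replicates 1 to 4 in blue and C2-/- Old replicates 1 to 4 in red; each bar is 1 mouse and each panel has its own linear axis from 0. Slc25a25 and Per1 were lowest in C2-/- Old replicate 1 (7.19 and 30.9 CPM), and Slc25a34 stood out in WT Old replicate 2 at 43.4 CPM.

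Carriers of aspartate, glutamate and di- and tricarboxylates numbered 7, of which 6 were tested, with 2 higher and 4 lower estimates and a median log2 fold change of -0.07. Slc25a12, the aspartate/glutamate carrier of muscle and brain, had 707, 579, 751 and 664 CPM in WT Old and 763, 649, 588 and 604 CPM in C2-/- Old (log2 fold change -0.05 ± 0.13). Slc25a11, the oxoglutarate/malate carrier, had 494, 330.4, 440.4 and 327 CPM in WT Old and 442, 348, 369.9 and 343 CPM in C2-/- Old (log2 fold change -0.08 ± 0.16). The values of both shuttle carriers were intermingled between the genotypes. Slc25a13, the aspartate/glutamate carrier of the liver, was scarce, with 1.31, 0.474, 1.08 and 0.326 CPM in WT Old and 0.681, 0.483, 0.355 and 0.797 CPM in C2-/- Old. Its log2 fold change of -0.46 had an interval of -1.52 to 0.61 and so held little information. The glutamate carrier Slc25a22, the dicarboxylate carrier Slc25a10 and the citrate carrier Slc25a1 had log2 fold changes of -0.20, 0.24 and 0.27, with intervals that all include 0.

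Of the 9 carriers of amino acids and carnitine, 7 were tested, with 4 higher and 3 lower estimates and a median log2 fold change of 0.11. Slc25a20, which brings acylcarnitines to fatty acid oxidation, was at 47.3, 43, 43.2 and 35 CPM in WT Old and at 52.7, 42.3, 39.2 and 47.4 CPM in C2-/- Old. Its groups overlapped (log2 fold change 0.11 ± 0.13). Slc25a15, the ornithine carrier that serves the urea cycle in liver, had 8.94, 5.51, 9.18 and 7.74 CPM in WT Old and 10.5, 9.18, 9.5 and 10.6 CPM in C2-/- Old. The groups only touched, and the log2 fold change of 0.34 ± 0.17 did not pass the test (unadjusted p 0.0723). Slc25a44, the carrier of branched-chain amino acids, lay between 44.4 and 61.4 CPM in all 8 mice, and Slc25a38, the glycine carrier used for haem synthesis, between 9.59 and 17.2 CPM. Slc25a15 was named after its values were seen.

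All 11 carriers of cofactors, nucleotides and glutathione were tested, with 5 higher and 6 lower estimates and a median log2 fold change of -0.01. The glutathione carrier Slc25a39 had 101, 74.1, 77.8 and 67.8 CPM in WT Old and 93.2, 70.9, 75.5 and 80 CPM in C2-/- Old. Its relative Slc25a40 was at 4.12, 2.41, 4.89 and 3.98 CPM in WT Old and at 5.03, 4.83, 5.53 and 4.71 CPM in C2-/- Old. Slc25a39 had a log2 fold change of -0.01 ± 0.15, while the estimate for Slc25a40 was 0.39 ± 0.21 with an unadjusted p of 0.0974 and with WT Old replicate 3 inside the C2-/- Old range. Of the pyrimidine nucleotide carriers, Slc25a33 had 10.7, 12.5, 10.4 and 12.6 CPM in WT Old and 11.3, 12.6, 8.47 and 8.56 CPM in C2-/- Old. Slc25a36 had 27.6, 19.9, 21.3 and 16.1 CPM in WT Old and 20.4, 12, 18 and 23.3 CPM in C2-/- Old. Their log2 fold changes were -0.18 ± 0.16 and -0.20 ± 0.22, and Slc25a36 holds the second cAMP response element printed above. A stretch of 544 bases of Slc25a36 is 99.6% identical to the pseudogene Gm13217, and 309 bases of Slc25a40 are nearly identical to the pseudogene Gm5066. Other named members share sequence too, among them Slc25a20, Slc25a12 and Slc25a37. Slc25a20 shares stretches with 18 genes, the longest of 366 bases at 98.4%. Slc25a12 shares 247 bases with Adpgk at 99.6%, and Slc25a37 shares 382 bases with Gm16867 at 100%. The part of shared sequence in the counts was not tested.

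Slc25a51, the NAD carrier, was the steadiest tested member, with a range of 54.6 to 59.6 CPM over the 8 mice and a coefficient of variation of 3.42%. Its log2 fold change was 0.01 with an interval of -0.20 to 0.22. Some of its counts, in 4 mice, were not whole numbers, as were those of Slc25a37 in 7 mice, as estimated counts can be where a read matches several genes.

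The 2 mitoferrins bring iron into the matrix for haem and iron-sulphur clusters, and neither passed the test. Slc25a37, known from red cell precursors, had 31.5, 20.8, 23.7 and 24 CPM in WT Old and 28.8, 26, 28.6 and 37.1 CPM in C2-/- Old, and Slc25a28 had 67, 73.6, 60.7 and 68.7 CPM and 71.2, 62.8, 55.5 and 53.7 CPM. Their log2 fold changes were 0.27 ± 0.16 (unadjusted p 0.12) and -0.15 ± 0.12 (unadjusted p 0.246), and both overlapped between the genotypes. Red cell markers summed to 4342, 6297, 483 and 777 CPM in WT Old and to 3778, 907, 1482 and 5884 CPM in C2-/- Old. Slc25a37 was highest in C2-/- Old replicate 4, with a high red cell sum. It was lowest in WT Old replicate 2, which had the highest red cell sum. In all mice but the latter, the order of Slc25a37 was that of the red cell sums. Nearly all of each sum was Hba-a1, with 4276 of the 4342 CPM in WT Old replicate 1. Alas2 kept the same order in these mice, whereas Hba-a2 and Slc4a1 did not. In C2-/- Old replicate 4, Hba-a2 was at 2.43 CPM, below the 23.7 CPM of WT Old replicate 1. The part of red cells in the values of Slc25a37 was not tested.

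The uncoupling protein-like members gave the largest positive estimate of the family. Slc25a30 had 1.23, 0.401, 1.94 and 2.39 CPM in WT Old and 1.93, 2.94, 5.04 and 1.94 CPM in C2-/- Old. The groups overlapped and the level was low, and the log2 fold change of 0.99 ± 0.49 had a 95% interval of -0.09 to 2.07 and an unadjusted p of 0.0695. Slc25a27 and Slc25a14 had log2 fold changes of -0.20 and -0.24. Family members under other symbols were no clearer, since Ucp2, Ucp3, Mtch1 and Mtch2 had log2 fold changes of 0.00, 0.12, -0.04 and -0.08 and 0 of these 4 had an unadjusted p under 0.05.

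Of 5 members to which no substrate was assigned here, 4 were tested and all 4 had lower estimates, with a median log2 fold change of -0.23. Slc25a34, chosen after its values were seen, was at 12.1, 43.4, 10.1 and 9.84 CPM in WT Old and at 15.3, 7.4, 8.65 and 10.4 CPM in C2-/- Old. WT Old replicate 2 alone stood above the rest, and its log2 fold change of -0.86 ± 0.47 (unadjusted p 0.101) became -0.03 (unadjusted p 0.902) without that mouse. The glucocorticoid-responsive genes Fkbp5, Pdk4 and Mt2 also had their highest values in WT Old replicate 2, at 205, 1008 and 216 CPM. These genes were picked after their values had been seen, so the match is a description only. In the other 7 mice they were at most 67.8, 468 and 35.8 CPM. That mouse was the highest of all for 27.5% of all tested genes, and a link of these genes to Slc25a34 was not tested. Slc25a46, an outer membrane member with a part in mitochondrial fission and fusion, lay between 49.7 and 60.9 CPM in all 8 mice (log2 fold change -0.15 ± 0.10).

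The libraries differed in how often they held the extreme value. WT Old replicate 2 was the highest of the 8 mice for 11 of the 39 tested members and the lowest for 9, that is 28.2% and 23.1%, beside 27.5% and 24.5% of all tested genes, so its place at the edge was not particular to the carriers. WT Old replicate 4 was the highest for 0 members and the lowest for 8 (20.5%), beside 9.27% and 9.60% of all tested genes. WT Old replicate 1 was the highest for 9 members (23.1%), beside 12.2% of all tested genes. For C2-/- Old replicate 1 these values were 7 members (17.9%) and 10.6%. These differences were not tested.

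**Figure D4:**
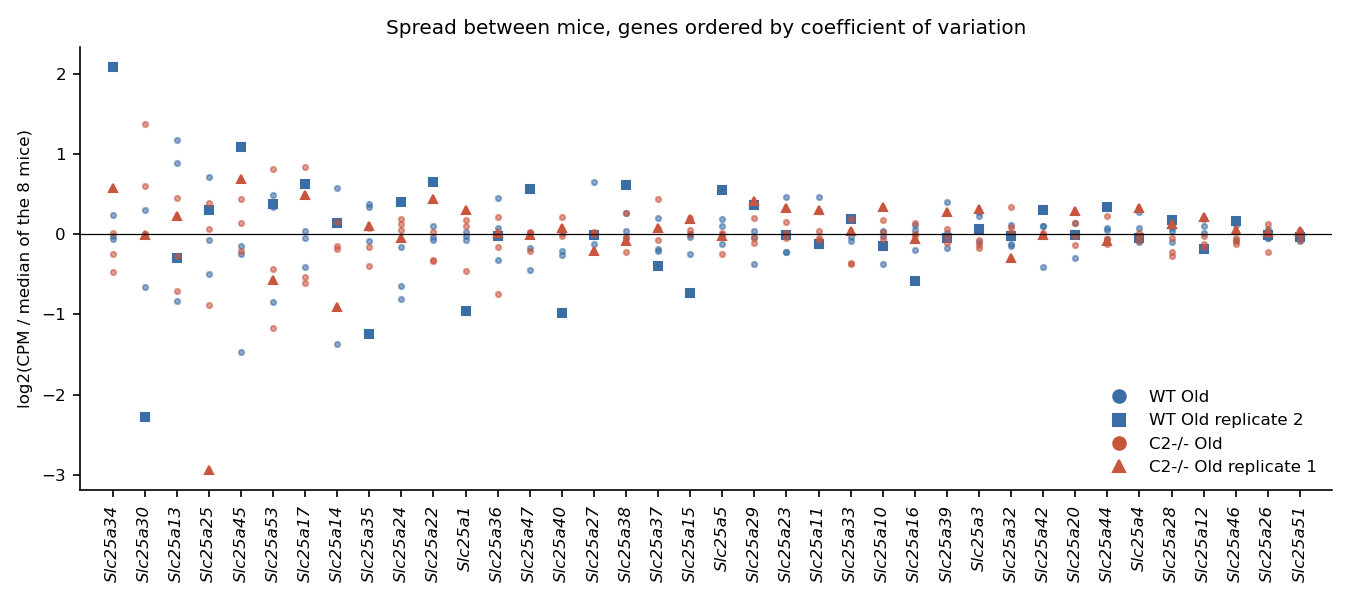
CPM of 38 of the 39 tested SLC25 genes relative to the median of the 8 mice, on a log2 scale, with genes ordered from the largest to the smallest coefficient of variation. Blue marks WT Old and red C2-/- Old, squares mark WT Old replicate 2 and triangles C2-/- Old replicate 1. The coefficient of variation falls from 80.9% for Slc25a34 to 3.42% for Slc25a51, and the triangle of Slc25a25 is the lowest point of the plot.

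Ratios of related carriers within a mouse do not depend on library size, and 6 such ratios were compared. Slc25a4 exceeded Slc25a5 by 83.3-fold to 161-fold in TPM, although 77.4% of their aligned coding bases are identical. Slc25a12 exceeded Slc25a13 by 588-fold to 2162-fold, and Slc25a39 exceeded Slc25a40 by 23.7-fold to 52.3-fold. The same gene of the pair was thus the higher one in each of the 8 mice for all 3 of these pairs. For the other pairs the members were closer. TPM ratios were 0.0791 to 0.207 for Slc25a37 over Slc25a28, with Slc25a28 the higher one in each of the 8 mice. They were 0.942 to 2.76 for Slc25a33 over Slc25a36 and 0.215 to 3.98 for Slc25a23 over Slc25a25. Slc25a25 was the higher of the last pair in 7 of 8 mice, and Slc25a23 was the higher in C2-/- Old replicate 1.

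No ratio differed between the genotypes beyond the spread between mice. Two-sided exact permutation tests of the log2 ratio of counts, whose smallest possible p with 4 mice in each group is 0.0286, gave p values of 0.114 to 0.943, or 0.429 to 0.943 after adjustment over the 6 ratios. The smallest p (exact permutation, 0.114) belonged to Slc25a37 over Slc25a28, whose log2 ratio was -1.45 ± 0.31 (SD, n = 4) in WT Old and -1.02 ± 0.36 (n = 4) in C2-/- Old. The largest difference of means was that of Slc25a23 over Slc25a25, 1.06 ± 0.90 (SE) on the log2 scale, with an exact permutation p of 0.286. It rested on C2-/- Old replicate 1, without which it was 0.30, below the 0.53 of Slc25a37 over Slc25a28 in the same 7 mice.

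**Figure D5:**
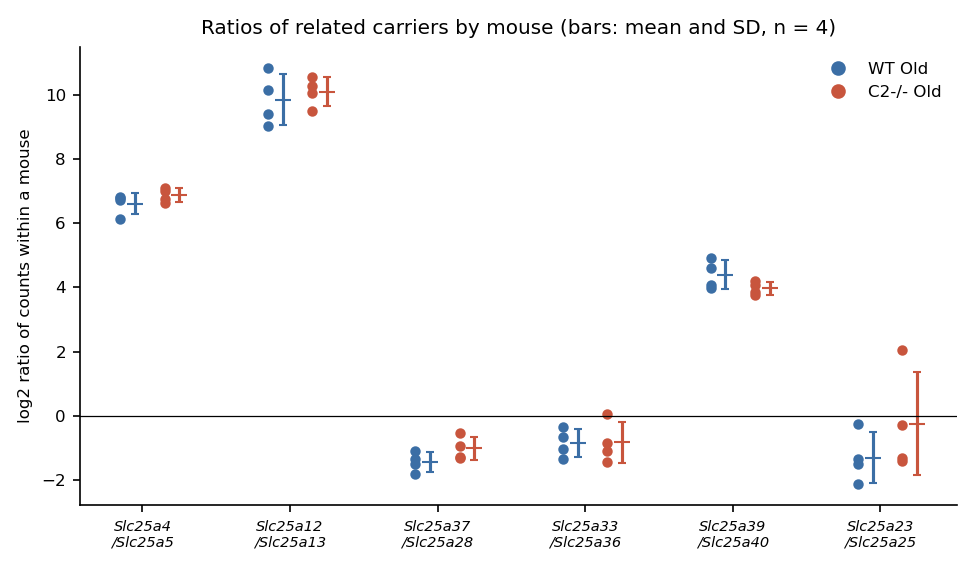
Log2 ratio of counts of 2 related carriers within each mouse, for 6 pairs, with WT Old in blue and C2-/- Old in red; the bars beside the points give the mean and SD of 4 mice. The points of the genotypes overlap for every pair, and 1 C2-/- Old mouse stands at 2.06 for Slc25a23 over Slc25a25 while the other 7 mice are below 0.

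Genes that work with the carriers were also close to each other in the genotypes. Of 57 listed partners, 56 were in the table and 54 were tested, and 14 had higher and 40 lower estimates in C2-/- Old. Their median log2 fold change was -0.08 beside -0.02 over all tested genes. An unadjusted p under 0.05 was found for 1 of the 54, against 5.29% of all tested genes, and an adjusted p under 0.05 for 0, against 0.0319%. That gene was Crat, the carnitine acetyltransferase of the matrix, at 1086, 955, 994 and 924 CPM in WT Old and 781, 762, 825 and 871 CPM in C2-/- Old. Every C2-/- Old value was below every WT Old value, a lack of overlap that 3.37% of all tested genes showed in either direction, with a log2 fold change of -0.29 ± 0.10, but the unadjusted p of 0.0193 became 0.849 after edgeR's adjustment. All 15 tested genes of ATP synthase and the mitochondrial creatine kinase had lower estimates, with a median of -0.09 and 0 of them with an unadjusted p under 0.05. The sum of this list overlapped, at 9939 to 13441 CPM in WT Old and 9854 to 12813 CPM in C2-/- Old, and was highest in replicate 1 of both genotypes. Genes measured in the same mice are not independent, so counts of lower estimates are a description. The share of lower estimates over all tested genes is not given here. The voltage-dependent anion channels and pore (4 of 4 lower, median -0.14), the malate-aspartate shuttle enzymes (4 of 4 lower, median -0.10) and the factors that import carriers (9 of 13 lower, median -0.07) gave estimates of like size, whereas the pyruvate carrier, sideroflexin and calcium uniporter genes had a median of 0.05 with 9 of 14 higher.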

How the data were processed

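The authors sequenced poly-A RNA of TA muscles, 4 WT Old and 4 C2-/- Old, with 1 library per mouse. Their methods name HISAT and featureCounts, whereas the sample labels name Bowtie2 and DESeq2 beside HISAT. The build was GRCm38.p6. Whether counting used strand is not given in the sources used here. The deposited values were read as estimated counts, since 5.5% to 6.53% of the values of a mouse were not whole, and they were rounded. Their totals differed between mice. The deposited TPM values, which the authors computed per transcript length, served to compare genes. A further 8 columns of values per mouse (FPKM) and the columns of the authors' own comparison (log2 fold changes, p-values and q-values) were not used. Symbols turned into other text were restored from gene IDs for 25 genes.

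All 16686 genes entered edgeR's quasi-likelihood test (edgeR 4.0.16, R 4.3.3; TMM factors 0.9291 to 1.035, default filter, Benjamini-Hochberg adjustment over 12542 genes). Limma-voom (limma 3.58.1), which the methods name, and DESeq2 1.42.0 were alternatives, with RLE size factors, other filters (no filter, or at least 10 counts in every mouse), the replicate number as a block, each mouse left out, and, for ratios, log2(CPM + 0.5) in place of counts plus 1. Scripts were tested on simulated data. Ratios were compared by two-sided exact permutation tests (SciPy 1.17.1); of 7 planned, Slc25a22 over Slc25a18 was not run, because Slc25a18 was not analysed here. Shared sequence (at least 100 bases at 97% identity) was found with BLAST 2.17.0.

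The members, the marker and partner lists and the rule for naming were chosen with earlier results of these data known. The rule named the 8 members with the highest mean TPM, any member with an unadjusted p under 0.05 or without overlap, and both genes of each pair. Other members were named after their values were seen, as were Per1, Fos, Naif1, Fkbp5, Pdk4 and Mt2. Replicates are separate mice by their labels. The values of 1 member are not reported here, although it is included in all counts.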

Additional observations from a re-analysis of the deposited data

Results flagged for a closer look

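Each tested member was examined in each genotype for 1 mouse far from the other 3, and 6 of 78 groups of 4 mice were picked out. Chance alone picks out about 1 in 20 such groups, and no explanation was tested. In WT Old replicate 2, the citrate carrier Slc25a1 was low at 1.46 CPM (others 2.71 to 2.89) and Slc25a34 was high at 43.4 CPM (others 9.84 to 12.1). Slc25a5, an ADP/ATP carrier, was low in C2-/- Old replicate 4 at 19.9 CPM (others 23.2 to 23.9). Slc25a27, an uncoupling protein-like member, was high in WT Old replicate 1 at 8.44 CPM (others 4.96 to 5.36) and low in C2-/- Old replicate 1 at 4.65 CPM (others 5.41 to 5.47). Its log2 fold change of -0.20 became 0.01 without WT Old replicate 1. Slc25a53 was low in WT Old replicate 3 at 0.187 CPM (others 0.424 to 0.47), a level close to the limit of counting.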

How the results depend on the processing

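The number of SLC25 genes with an unadjusted p under 0.05 was 0 by edgeR and 1 with DESeq2 (Slc25a30, p 0.0408), and lay between 0 and 2 when 1 mouse was left out. Leaving out WT Old replicate 1 gave Slc25a37 (1 gene), replicate 2 gave 2 genes with Slc25a24 among them, replicate 3 gave Slc25a15 and Slc25a40, and replicate 4 gave Slc25a5 and Slc25a30, while leaving out any C2-/- Old mouse gave 0. With the replicate number as a replicate block the count was 1, Slc25a25 with a log2 fold change of -0.92 and an unadjusted p of 0.0348. Replicates 2, 3 and 4 did not pair by number, with correlations between same-numbered mice of 0.04, -0.05 and 0.02. For replicate 1 the correlation was 0.27 and its own number was the best match. What the replicate 1 mice share was not tested. The count after adjustment was 0 under every alternative, and the median log2 fold change moved between -0.08 and 0.02 when 1 mouse was left out. Signs were not fixed for log2 fold changes near 0, which lay between -0.08 and 0.09 for Slc25a4, -0.16 and 0.04 for Slc25a11, -0.13 and 0.01 for Slc25a12, and -0.08 and 0.12 for Slc25a39 with 1 mouse left out. For Slc25a39 the value was 0.01 with at least 10 counts in every mouse, 0.00 with limma-voom and 0.00 with the replicate block. The differences of log2 ratios between the genotypes were likewise unfixed for Slc25a12 over Slc25a13 (0.25, or -0.03 to 0.58 with 1 mouse left out, lowest without WT Old replicate 1) and Slc25a33 over Slc25a36 (0.03, or -0.27 to 0.23, lowest without C2-/- Old replicate 2). The causes were not tested. With 4 mice per genotype the 95% interval reached past 1.5-fold for 22 of the 39 tested members.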
